A study of Mus musculus with 12 samples.

Results

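The serpins are a family of proteins that share a fold, and most of them inhibit serine proteases. They were followed here in whole livers of BALB/c mice that lack interleukin-18 and of wild type BALB/c mice. A gene was taken as a member where a probe outside the controls carried a gene name beginning with Serpin, a letter from a to i and a digit. This gave 61 genes, read by 78 probes, out of 36095 genes and 55681 probes on the array. The 4 groups were interleukin-18 knockout at 6 weeks, wild type at 6 weeks, interleukin-18 knockout at 12 weeks and wild type at 12 weeks, each of 3 arrays that the labels name as biological replicates. All 4 groups are untreated, and neither the sex of the animals, the time of killing nor the part of the gene that was deleted is given in the sources used here. The arrays are 1-colour Agilent arrays, so a value is the brightness of a 60-base probe after hybridisation of labelled cRNA made from liver RNA with an oligo-dT primer. Values below are levels, meaning log2 of the processed signal minus the 75th percentile of that array, so 0 is the array's 75th percentile and a step of 1 is a doubling. They compare samples for 1 probe, and levels of different probes are not set against each other.

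An inhibitory serpin presents a reactive loop to its protease as bait. When the protease cuts the loop, the serpin snaps into a more stable form and traps the enzyme in a covalent complex, so each molecule is used once. The liver makes most of the serpins of blood plasma: the antitrypsins and antichymotrypsins that restrain leukocyte proteases, the inhibitors of coagulation, fibrinolysis and complement, and non-inhibitory members that carry hormones. Mouse clade A has expanded on chromosome 12, where single human genes for antitrypsin and antichymotrypsin correspond to clusters of mouse genes. Clade B serpins stay inside cells and are known from leukocytes and epithelia.

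The letters of the probes set what can be told apart in such clusters. Of all pairs of probes for different serpin genes, 9 matched at more than 80% of at least 30 overlapping bases. The antitrypsin probes below are shown because they read almost the same letters from different genes. Each line is a stretch of 30 bases of a 60-base probe, 5′ to 3′, and capitals mark a base unlike the Serpina1c probe.
Serpina1a: aaAatgtcatccttccttctgaattgggtt
Serpina1c: aagatgtcatccttccttctgaattgggtt
Serpina1e: aagaAgtcatccttccttctgaattgggtt
The full Serpina1a probe (chromosome 12, 105091819 to 105091878 on mm9, minus strand) matched the Serpina1c probe (105133165 to 105133224) at 50 of 51 overlapping bases, and the array's own annotation assigned the Serpina1c probe to 4 RefSeq transcripts. Values for single antitrypsin genes are therefore uncertain. The 2 probes of Serpina11 start 3 bases apart on mm9 (105218465 to 105218524 and 105218462 to 105218521) and differ at 4 of 57 overlapping bases, all within the stretch shown, where capitals mark the differing bases.
Serpina11, first probe: ccccctgcaTggcaggaccccTgTgctTca
Serpina11, second probe: ccccctgcaCggcaggaccccCgCgctGca
In the antichymotrypsin cluster, the second Serpina3i probe (105506705 to 105506764, plus strand) and the Serpina3h probe (105491733 to 105491792) matched at 51 of 57 bases, and all 6 differing bases, in capitals, lie in this stretch.
Serpina3i, second probe: cacaggAgtcaaaGtTaAtctaCgttgtgG
Serpina3h: cacaggGgtcaaaTtAaTtctaTgttgtgA
The next 4 members, which differed between groups in at least 3 of the 5 comparisons below, were read by probes with no close match in the family. Their first 30 bases are shown in lower case, and the Serpine2 probe is shown whole because it spans 2618 bases of mm9 and so crosses an intron.
Serpina12: gtacaatattttcccaggatagttaacaag
Serpina5: gtagcatacttgagtaatcagggtcaaagt
Serpinb1a: attttcttcattcggcacaatcccacatct
Serpine2: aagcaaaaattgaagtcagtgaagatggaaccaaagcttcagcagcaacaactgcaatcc
The Serpinb8 probe (chromosome 1, 109504865 to 109504924 on mm9) is shown for its repeats, with runs of at least 3 TG in capitals.
Serpinb8: aTGTGTGTGTGTGTGcctcTGTGTGTGTGt
It held 19 TG pairs over its 60 bases, against at most 9 in any other serpin probe.

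Il18, the targeted gene, had levels of -0.02, -0.04 and -0.37 in knockout livers, against 2.44, 2.41 and 2.35 in wild type livers, at 6 weeks, and -0.03, -0.12 and 0.04 in knockout against 2.25, 2.15 and 2.49 in wild type livers at 12 weeks. The differences were -2.54 ± 0.11 (SE, adjusted p = 2.47e-06 by limma) and -2.34 ± 0.11 (adjusted p = 1.1e-05). Hepatocyte markers summed to between 2030000 and 2480000 scanner units on every array, and all 10 were measured. Each array's 75th percentile lay between 349 and 420 scanner units, and from 50.1% to 57.7% of spots were well above background. The arrays came from 2 slides, which were scanned separately. All 6-week wild type arrays were on slide 1 together with 1 array of the 12-week wild type (replicate 1), and the other 8 were on slide 2, so at 6 weeks slide and genotype cannot be told apart. Only probes that some group showed clearly over background, on each of its 3 arrays, entered the tests.

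Of the 61 serpin genes, 38 were tested and 32 had a probe well above background on all 12 arrays. Of the 24 clade A genes 22 were tested, but only 8 of the 27 clade B genes. The 23 genes not tested were 19 of clade B with Serpina3a, Serpina3j, Serpini1 and Serpini2. Among them 14 were well above background on 0 arrays, and the other 9 on 1 or 2 arrays. On 1 of its 2 probes Serpinb9c, a paralog of the granzyme inhibitor Serpinb9, had a level of 0.00 in replicate 1 of the 6-week knockout and between -6.47 and -5.05 on the other 11 arrays. In the same way Serpinb6d stood at -1.71 on replicate 1 of the 6-week wild type and between -5.33 and -4.13 elsewhere, so these are values of single arrays.

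At 6 weeks, 14 of the 38 tested serpin genes (36.8%) differed between knockout and wild type livers, 7 higher and 7 lower in the knockout. Over all 22130 genes tested the same threshold, an adjusted p under 0.05 in limma with the Benjamini-Hochberg method, called 21.1%, with 11.7% higher and 9.35% lower. At 12 weeks 1 serpin gene, Serpina5, differed and was higher in the knockout, where 8.21% of all genes were called, 5.65% higher and 2.56% lower. That is 2.63% of the members, fewer than the background share. The shares over all genes at each age are also the background for the counts in smaller groups and gene lists below. The median knockout minus wild type difference of the 38 members was 0.03 at 6 weeks and -0.03 at 12 weeks, against 0.02 and 0.01 over all genes.

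**Figure D1:**
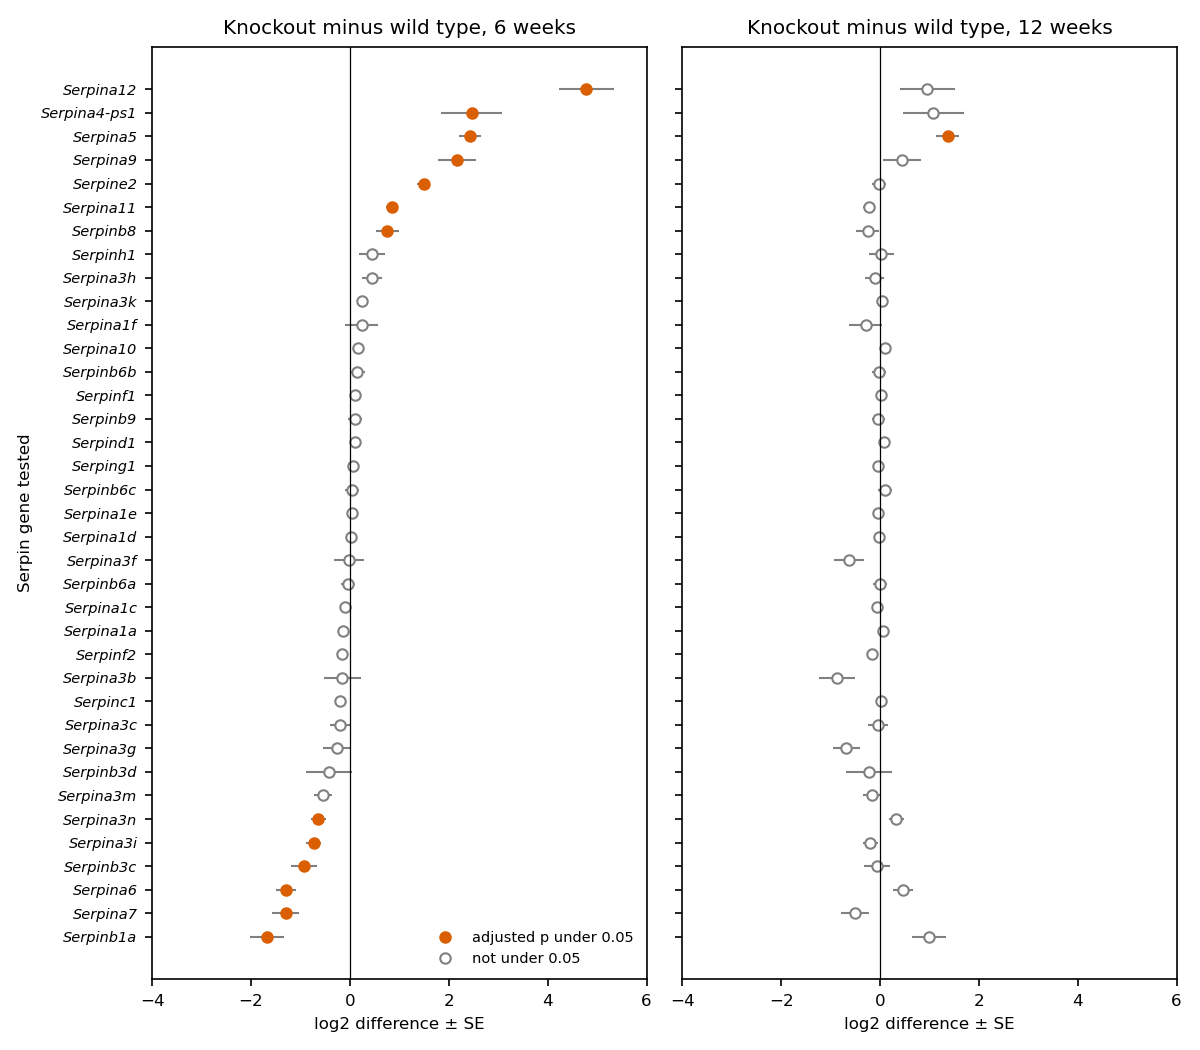
Knockout minus wild type difference of 37 tested serpin genes at 6 weeks (left) and 12 weeks (right), as log2 difference with its standard error (3 arrays per group), ordered by the 6-week value. Filled points passed an adjusted p of 0.05, and they number 13 at 6 weeks and 1 at 12 weeks; most points of plasma inhibitors lie close to 0 at both ages.

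Other features of the 6-week groups moved beside these serpins, and the labels do not account for them. Of 11 tested genes with female-biased expression in mouse liver 11 were lower in the 6-week knockout than in the 6-week wild type and 0 higher, with a median difference of -4.75. Of 12 male-biased genes 10 were higher and 0 lower, with a median of 2.21. The summed level of the female-biased genes lay between 49200 and 67300 in the 6-week knockout, between 241000 and 300000 in the 6-week wild type, between 141000 and 181000 in the 12-week knockout and between 71100 and 151000 in the 12-week wild type. The Y-linked gene Ddx3y lay between 2.07 and 2.51 on all 12 arrays and both Xist probes were well above background on 0 arrays, so RNA from the Y chromosome was present in every group. Eif2s3y, also Y-linked, was at 2.40, 2.65 and 3.47 in the 6-week knockout and between 3.29 and 3.73 in the other groups. Of 19 genes of the circadian clock, the 6-week comparison called 4 higher and 11 lower in knockout livers, and the 12-week comparison 9 higher and 0 lower. What part the state of sex-biased genes, the clock or the slide has in any serpin difference was not tested, and at 6 weeks they cannot be told apart from genotype.

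Among the serpins that act on coagulation, fibrinolysis or complement, Serpine2 and Serpina5 were higher in knockout livers at 6 weeks. Serpine2 encodes protease nexin 1, an inhibitor of thrombin and urokinase in tissues. Its levels (chromosome 1, 79793476 to 79796093 on mm9) were -2.35, -2.30 and -2.46 in 6-week knockout livers and -3.92, -3.64 and -4.01 in 6-week wild type livers. At 12 weeks they were -1.15, -1.21 and -0.93 in knockout livers and -0.82, -1.34 and -1.07 in wild type livers. The 6-week groups did not overlap with each other or with the 12-week groups, while the 12-week genotypes overlapped. The knockout was higher at 6 weeks by 1.49 ± 0.14 (SE, adjusted p = 0.000177 by limma, 2.80-fold), with 1 of the 3 wild type arrays well above background. At 12 weeks the difference was -0.02 ± 0.14, and the knockout effect differed between the ages by -1.50 ± 0.20 (adjusted p = 0.00187).

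Serpina5, the protein C inhibitor, was the member that was higher in the knockout at both ages. In humans it is made by the liver, and in mice it is known chiefly from the reproductive tract. Levels at 6 weeks (chromosome 12, 105344174 to 105344233 on mm9, plus strand) were -3.52, -4.19 and -3.86 in knockout livers, against -6.55, -6.05 and -6.25 in wild type livers, where 0 of 3 arrays were well above background. At 12 weeks they were -3.40, -3.03 and -2.53 in knockout livers and -4.21, -4.36 and -4.51 in wild type livers. Every knockout array lay above every wild type array. The 6-week difference was 2.43 ± 0.23 (SE, adjusted p = 0.000177 by limma). It was 0.53 (adjusted p = 0.0024) with normexp background correction. Against the dimmest signals well above background the knockout was 1.34-fold higher, which is no strict lower bound. At 12 weeks the difference was 1.37 ± 0.23 (adjusted p = 0.00876, 2.59-fold), and within slide 2, which held 3 knockout and 2 wild type arrays of that age, it was 1.45 (adjusted p = 0.042). All 3 wild type arrays of 12 weeks were well above background, but they were dim, so the size of the 12-week difference is uncertain. The effects of the 2 ages differed by -1.06 ± 0.33 (adjusted p = 0.0712). Erythroid markers were also higher in the knockout at both ages, 3 of 4 at 6 weeks, where the other was lower, and 2 of 4 at 12 weeks, and their part in the Serpina5 difference was not tested.

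**Figure D2:**
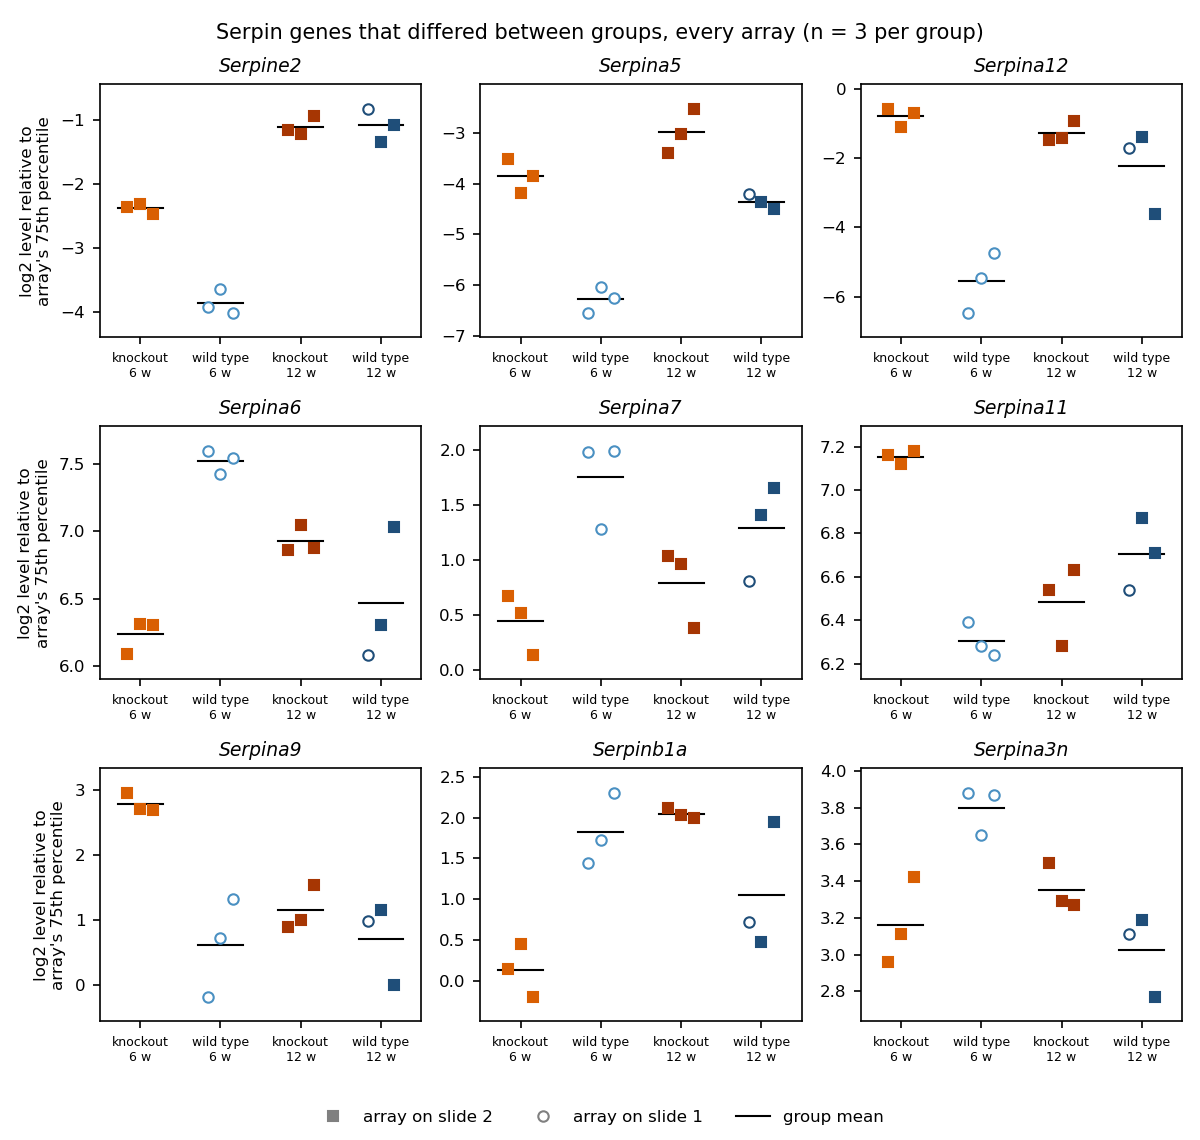
Level of 9 serpin genes on every array, as log2 of the signal relative to the array's 75th percentile, for knockout and wild type livers of 6 and 12 weeks (3 arrays each). Squares are arrays of slide 2, open circles arrays of slide 1 and black lines group means. Serpina11 was high in the 6-week knockout at 7.12 to 7.18, and Serpina12 and Serpina5 were low in the 6-week wild type.

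A further 5 plasma inhibitors of clotting, fibrinolysis and complement are grouped here because they did not pass in any of the 5 comparisons. These are Serpinc1 (antithrombin), Serpind1 (heparin cofactor II), Serpina10 (the protein Z-dependent inhibitor of factor Xa), Serpinf2 (the plasmin inhibitor antiplasmin) and Serping1 (the C1 inhibitor). Serpinc1 had levels of 9.54, 9.53 and 9.75 in the 6-week knockout, against 9.81, 9.82 and 9.76 in the 6-week wild type, groups that did not overlap and differed by -0.19 ± 0.08 (SE, adjusted p = 0.0979 by limma). That difference passed with normexp background correction (-0.22, adjusted p = 0.03) and without replicate 3 of the 6-week knockout (-0.26, adjusted p = 0.0474). The knockout minus wild type differences of the 5 genes lay between -0.19 and 0.17 at 6 weeks and between -0.17 and 0.10 at 12 weeks. Of 23 tested proteases, substrates and cofactors of coagulation and fibrinolysis, which these serpins act on or beside, 3 passed at 6 weeks, 2 of them higher and 1 lower in knockout livers, with a median difference of -0.04. The higher genes were F11, encoding a protease of the intrinsic clotting pathway (0.64 ± 0.11, adjusted p = 0.00406), and Fga, a fibrinogen chain (0.52 ± 0.10, adjusted p = 0.00639). The lower gene was Agt, itself a serpin by fold, whose product is cut to release angiotensin. At 12 weeks 0 of the 23 passed. Of 7 complement C1 and lectin pathway genes Masp2, a lectin pathway protease, was higher in the 6-week knockout (0.36 ± 0.07, adjusted p = 0.00843) and 0 passed at 12 weeks.

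The antitrypsin genes, Serpina1a, Serpina1c, Serpina1d and Serpina1e, are among the most abundant liver transcripts. Serpina1a had levels of 10.17, 10.21 and 10.37 in 6-week knockout livers, against 10.39, 10.44 and 10.31 in 6-week wild type livers, and 10.37, 10.19 and 10.40 in 12-week knockout livers, against 10.36, 10.22 and 10.20 in 12-week wild type livers. The groups overlapped at both ages. Over the 4 genes the knockout minus wild type differences lay between -0.13 and 0.04 at 6 weeks and between -0.06 and 0.06 at 12 weeks, and 0 of the 4 passed in any comparison. Second probes of Serpina1a, Serpina1d and Serpina1e gave 6-week differences of 0.12, 0.23 and 0.16, of which 0 passed. The brightest of these probes reached 79.0% of saturation, and 0 were saturated. Serpina1f, a member of the same cluster known from the epididymis, had levels of -1.71, -1.85 and -1.97 in the 6-week knockout, against -1.80, -2.20 and -2.26 in the 6-week wild type, and did not pass in any of the 5 comparisons.

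Since these 4 genes read alike, their promoters were compared in RefSeq sequence on GRCm38.p6, 250 bases before each start. The run of 55 bases printed here was the longest shared letter for letter by all 4 (minus strand, chr12:103863625-103863679 for Serpina1a, chr12:103904962-103905016 for Serpina1c, chr12:103773634-103773688 for Serpina1d and chr12:103956960-103957014 for Serpina1e), with GTTAAT, letters found in the site of the liver factor HNF1, in capitals.
Shared antitrypsin promoter run: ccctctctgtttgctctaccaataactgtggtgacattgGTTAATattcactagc
Searched on either strand in the 250 bases before the start, GTTAAT was in 6.43% of 32851 promoter entries. Among serpins it was in 11 of 59 entries, which belong to 10 of the 50 serpin genes with an entry. The 4 antitrypsin genes are among these 10 and share the run printed above, so they do not count as separate finds. The E-box letters CACGTG, a palindrome that clock activators can bind, were in 6.02% of entries and in 0 of the 50 serpin genes. A match says only that the letters are present in this window.

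In the antichymotrypsin cluster, which in mice has diverged into inhibitors of different proteases, 2 of 9 tested genes passed at 6 weeks, both lower in the knockout. Of all genes 21.1% were called in that comparison, so 2 of 9 is near the background share. Serpina3n, an acute phase serpin that inhibits granzyme B, had levels of 2.96, 3.11 and 3.42 in 6-week knockout livers, against 3.88, 3.65 and 3.87 in 6-week wild type livers. At 12 weeks it had 3.5, 3.29 and 3.27 in knockout livers, against 3.11, 3.19 and 2.77 in wild type livers. The groups did not overlap at either age and lay in opposite order. The 6-week difference was -0.64 ± 0.15 (SE, adjusted p = 0.0142 by limma), the 12-week difference 0.33 ± 0.15 (adjusted p = 0.191) and the difference between them 0.97 ± 0.21 (adjusted p = 0.0154). Of 21 other acute phase genes 3 passed at 6 weeks, 1 of them higher and 2 lower in knockout livers, and 0 passed at 12 weeks. Among them the orosomucoid Orm3 was lower at -1.84 ± 0.31 (adjusted p = 0.00346).

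Serpina3i was lower in the 6-week knockout by -0.73 ± 0.15 (SE, adjusted p = 0.00936 by limma), but its second probe, which resembles Serpina3h, differed by 0.59 (adjusted p = 0.254) in the other direction. That second probe was dim, well above background on 3 of 3 arrays of the 6-week knockout and 0 of 3 of the 6-week wild type. Serpina3k, the contrapsin that is abundant in mouse plasma, had levels of 10.39, 10.27 and 10.38 in the 6-week knockout, against 10.07, 10.13 and 10.13 in the 6-week wild type. These did not overlap and differed by 0.24 ± 0.08 (adjusted p = 0.0552). Serpina3m differed by -0.55 ± 0.18 (adjusted p = 0.0524). Both lay close to the threshold and passed with normexp background correction, with quantile normalization, with the filter on all 12 arrays and without replicate 1 or replicate 3 of the 12-week wild type (adjusted p = 0.00931 to 0.049 for Serpina3k and 0.00163 to 0.0443 for Serpina3m). Neither gene passed with the slide as a fixed or as a random term, and the Serpina3m levels were divided by slide, as given below. At 12 weeks the cluster had 0 genes past the threshold. Replicate 3 of the 12-week wild type had a level of 0.17 for Serpina3b, against -1.94 to -1.40 on the other 11 arrays. It was also the highest of the 12 arrays for Serpina3g at 3.17 and for the main probe of Serpina3f at -0.03, though not for the second Serpina3f probe, where it stood at -1.34 and replicate 1 of its group at -1.20.

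In 4 members (10.5%) the arrays of slide 1 all lay above those of slide 2, and in 0 members below. Over all genes the shares were 8.34% above and 4.94% below, so the share above is close to that of all genes. Serpina3m was at 8.22, 8.18, 8.18 and 8.35 on the 4 arrays of slide 1 and between 7.55 and 7.78 on the 8 arrays of slide 2. For Serpina3c the ranges were 6.01 to 6.20 and 5.25 to 5.87, for Serpina3i -2.0 to -1.66 and -2.67 to -2.19, and for Serpinb3c -3.02 to -2.63 and -4.10 to -3.45. The 12-week wild type was therefore divided in these genes, with replicate 1 beside the 6-week wild type and replicates 2 and 3 beside the knockout. Of the 4, Serpina3i and Serpinb3c are among the 14 called at 6 weeks. With the slide as a fixed term their differences were -0.34 (adjusted p = 0.489) and 0.13 (adjusted p = 0.845), and Serpina3c then stood at 0.73 (adjusted p = 0.0245), against -0.20 ± 0.21 without the term.

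**Figure D3:**
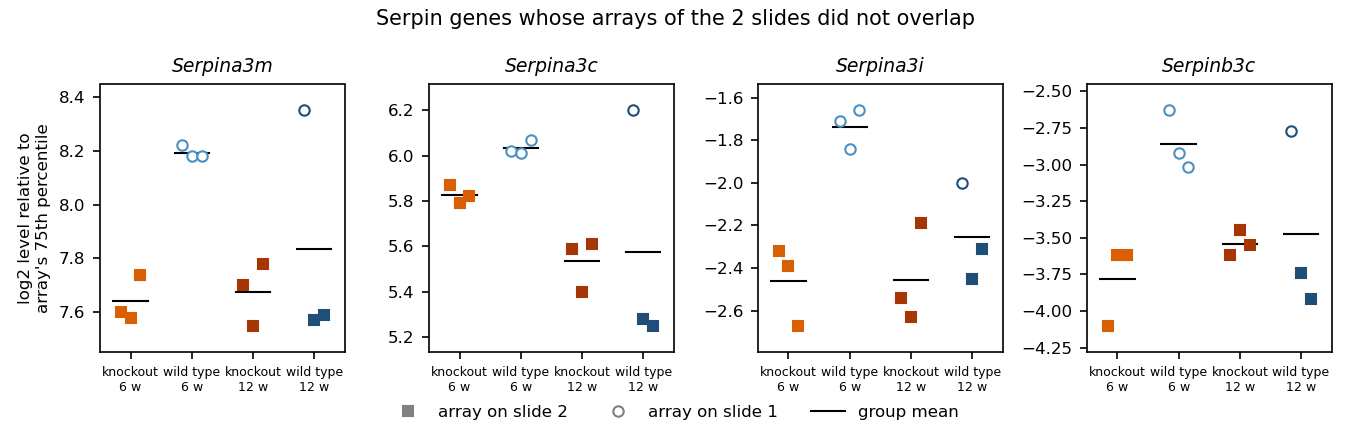
Level on every array of the 4 serpin genes whose arrays did not overlap between slides, as log2 of the signal relative to the array's 75th percentile. Squares are arrays of slide 2, open circles arrays of slide 1 and black lines means of 3 arrays; the open circle of the 12-week wild type sits with the 6-week wild type in each panel.

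Of the serpins that carry hormones 2 of 2 were lower in the 6-week knockout than in the 6-week wild type, against 9.35% of all genes. Serpina6 encodes corticosteroid-binding globulin, the plasma carrier of glucocorticoids. Its levels (chromosome 12, 104884880 to 104884939 on mm9, minus strand) were 6.09, 6.31 and 6.30 in 6-week knockout livers, against 7.6, 7.43 and 7.55 in 6-week wild type livers. At 12 weeks they were 6.86, 7.05 and 6.88 in knockout livers, against 6.08, 6.30 and 7.03 in wild type livers. The 6-week groups did not overlap, and at 12 weeks replicate 3 of the wild type lay among the knockout livers. The differences were -1.29 ± 0.20 (SE, adjusted p = 0.00235 by limma) at 6 weeks and 0.46 ± 0.20 (adjusted p = 0.184) at 12 weeks, and they differed from each other by 1.76 ± 0.28 (adjusted p = 0.00458). A second probe at a distance on the same gene gave -1.55 (adjusted p = 0.000656), 0.45 (adjusted p = 0.168) and 2.0 (adjusted p = 0.00196). Without replicate 3 of the 12-week wild type, the 12-week difference was 0.74 (adjusted p = 0.00763).

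Serpina7 encodes thyroxine-binding globulin and is X-linked. Its levels were 0.67, 0.52 and 0.14 in 6-week knockout livers, against 1.98, 1.28 and 1.99 in 6-week wild type livers, and 1.04, 0.96 and 0.38 in 12-week knockout livers, against 0.81, 1.41 and 1.65 in 12-week wild type livers. It was lower in the 6-week knockout by 2.47-fold (-1.30 ± 0.28, SE, adjusted p = 0.0103 by limma), and the 12-week difference of -0.50 ± 0.28 did not pass (adjusted p = 0.298).

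Of the other clade A genes tested, leaving aside the pseudogene Serpina4-ps1 described below, 3 of 3 were higher in the 6-week knockout than in the 6-week wild type, against 11.7% of all genes. With the slide as a fixed term Serpina12 alone of them passed, with Serpina11 at 0.60 (adjusted p = 0.113) and Serpina9 at 2.59 (adjusted p = 0.0946). Serpina12 encodes vaspin, an adipokine that inhibits a kallikrein. Its levels (chromosome 12, 105267099 to 105267158 on mm9, minus strand) were -0.57, -1.08 and -0.68 in 6-week knockout livers, against -6.47, -5.46 and -4.74 in 6-week wild type livers, where 0 of 3 arrays were well above background. At 12 weeks they were -1.47, -1.42 and -0.92 in knockout livers, against -1.71, -1.37 and -3.61 in wild type livers. The 6-week wild type thus lay below the other 3 groups, in which replicate 3 of the 12-week wild type was the lowest. The 6-week knockout was higher (4.78 ± 0.56, SE, adjusted p = 0.000538 by limma), 11.3-fold against the dimmest signals well above background. With normexp background correction the difference was 1.99 (adjusted p = 0.000236). At 12 weeks the difference was 0.96 ± 0.56 (adjusted p = 0.32), and the effects differed by -3.81 ± 0.79 (adjusted p = 0.0138). Of 3 tested adipocyte markers 0 passed in either genotype comparison, and their sum was 2530 to 2910 in the 6-week knockout and 1760 to 2630 in the 6-week wild type. In whole liver, fewer cells of a type and less RNA per cell cannot be told apart.

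Serpina11, a secreted clade A member of little known function, had levels of 7.16, 7.12 and 7.18 in 6-week knockout livers, against 6.39, 6.28 and 6.24 in 6-week wild type livers. At 12 weeks it had 6.54, 6.28 and 6.63 in knockout livers, against 6.54, 6.87 and 6.71 in wild type livers. The 6-week knockout lay above all other livers. The difference was 0.85 ± 0.11 (SE, adjusted p = 0.000886 by limma) at 6 weeks and -0.23 ± 0.11 (adjusted p = 0.231) at 12 weeks, and these differed by -1.08 ± 0.16 (adjusted p = 0.00274). The second probe, with the 4 differing bases shown above, gave 0.79 and -0.19.

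Serpina9, known in humans as centerin of germinal centre B cells, was also highest in the 6-week knockout. It had levels of 2.96, 2.72 and 2.70 in 6-week knockout livers, against -0.18, 0.72 and 1.32 in 6-week wild type livers, and 0.90, 1.0 and 1.55 in 12-week knockout livers, against 0.99, 1.15 and 0.00 in 12-week wild type livers. The 6-week knockout was 4.51-fold higher (2.17 ± 0.38, SE, adjusted p = 0.00451 by limma). Of 6 tested B and plasma cell markers 0 passed at 6 weeks, and at 12 weeks 1 did, the immunoglobulin joining chain gene Jchain, which was lower in the knockout (-1.49 ± 0.20, adjusted p = 0.00342). Serpina4-ps1, a pseudogene related to the kallistatin gene, had levels of 6.67, 7.34 and 6.62 in 6-week knockout livers and 2.81, 4.94 and 5.49 in 6-week wild type livers, a difference of 2.46 ± 0.62 (adjusted p = 0.0218) that did not pass without replicate 2 of the 6-week knockout (2.23, adjusted p = 0.0722). Without replicate 1 of the 6-week wild type, the lowest array, it was 1.66 (adjusted p = 0.0383). Its other probe, which matched at 51 of 52 overlapping bases, gave 2.59 (adjusted p = 0.021). At 12 weeks it had 5.61, 6.47 and 7.42 in knockout livers, against 5.48, 5.39 and 5.39 in wild type livers, which did not overlap but did not pass (1.08 ± 0.62, adjusted p = 0.32).

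**Figure D4:**
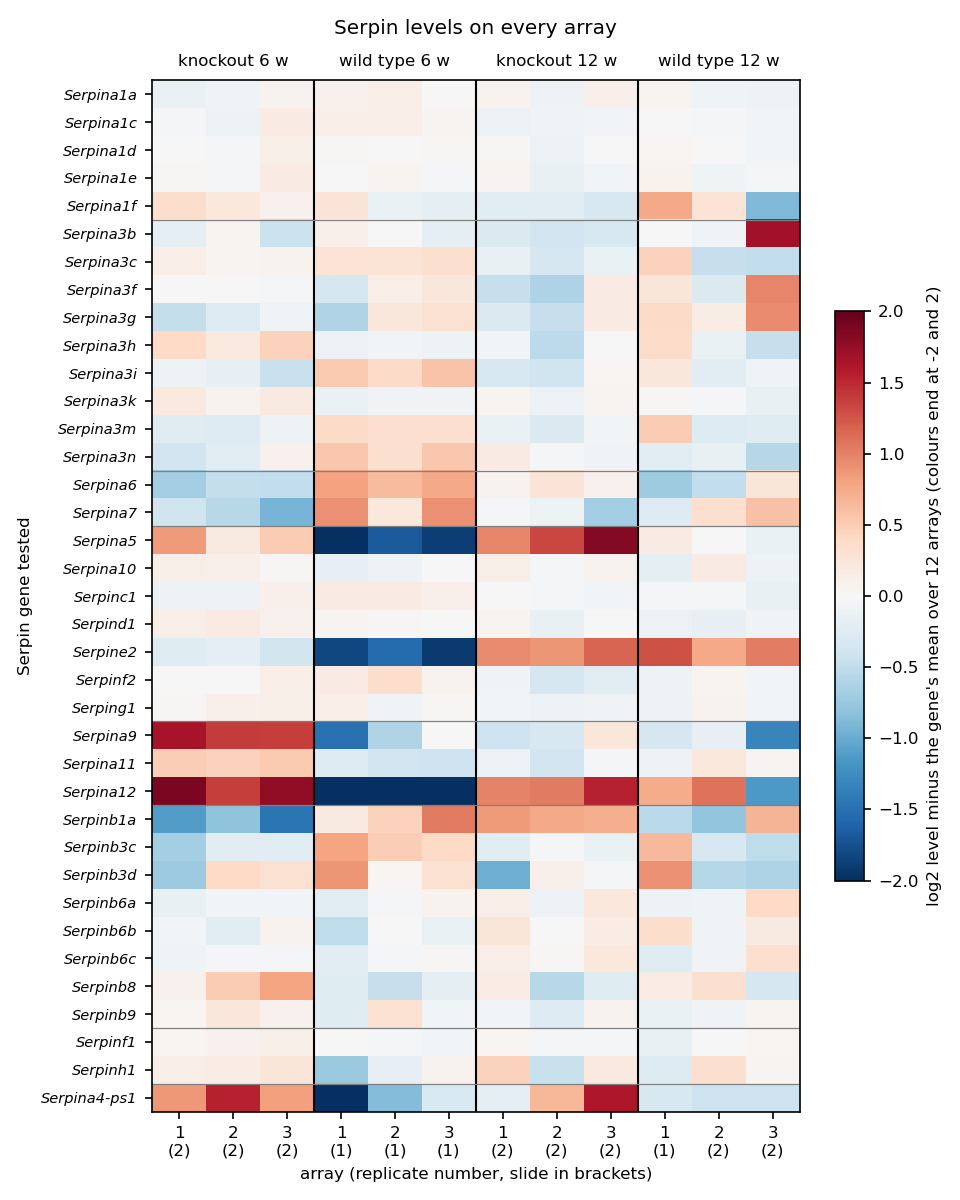
Level of 37 tested serpin genes on the 12 arrays, each minus the gene's own mean over the arrays (log2 scale, colours end at -2 and 2), in columns of 3 arrays per group with replicate number and slide. Genes are grouped by role, from the antitrypsin cluster at the top to the pseudogene Serpina4-ps1 at the bottom. The rows of Serpina1a, Serpina1c, Serpina1d and Serpina1e are nearly blank, and the Serpina12 row is dark in the 6-week wild type.

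In clade B, 3 of 8 tested genes passed at 6 weeks and 0 at 12 weeks, where 21.1% and 8.21% of all genes were called. Serpinb1a inhibits the neutrophil proteases elastase, cathepsin G and proteinase 3. Its levels (chromosome 13, 32934693 to 32934752 on mm9, minus strand) were 0.15, 0.46 and -0.19 in 6-week knockout livers, against 1.44, 1.73 and 2.30 in 6-week wild type livers. At 12 weeks they were 2.12, 2.03 and 1.99 in knockout livers, against 0.72, 0.48 and 1.95 in wild type livers. The genotypes lay in opposite order at the 2 ages, without overlap. The 6-week difference was -1.68 ± 0.35 (SE, adjusted p = 0.00962 by limma), the 12-week difference 0.99 ± 0.35 (adjusted p = 0.11) and the difference between them 2.68 ± 0.50 (adjusted p = 0.00848). Without replicate 3 of the 12-week wild type the 12-week difference was 1.44 (adjusted p = 0.0117). Of 6 tested neutrophil and monocyte markers 5 passed at 6 weeks, 3 higher and 2 lower in knockout livers, with a summed level in the 6-week knockout of 3280 to 3990, against 4410 to 5160 in the 6-week wild type, and 0 passed at 12 weeks. S100a9 (0.90), S100a8 (0.74) and Camp (0.57) were the higher markers. The lower ones were Itgam (-0.92) and Elane (-0.63), which encodes the neutrophil elastase that Serpinb1a inhibits.

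Serpinb8 had levels of 7.39, 7.82 and 8.10 in the 6-week knockout, against 7.06, 6.84 and 7.13 in the 6-week wild type, a difference of 0.76 ± 0.23 (SE, adjusted p = 0.0432 by limma). Its probe is the one with the TG repeats shown above. Of 167 other tested genes whose probe held 5 TG pairs in a row, 93 (55.7%) were called higher in the 6-week knockout and 2 lower, with a median difference of 0.58. How much of the Serpinb8 signal came from its own transcript was not tested. The call was lost on leaving out replicate 2 or 3 of the 6-week knockout, any 1 array of the 6-week wild type or replicate 3 of the 12-week knockout (0.59 to 0.82, adjusted p = 0.0606 to 0.13). Serpinb3c had levels of -4.10, -3.62 and -3.62 in the 6-week knockout, against -2.63, -2.92 and -3.02 in the 6-week wild type, with 2 of 3 knockout arrays well above background (-0.93 ± 0.26, adjusted p = 0.0331). Without any 1 of these 6 arrays it did not pass (adjusted p = 0.0562 to 0.108). The other 5 tested clade B genes, Serpinb3d, Serpinb6a, Serpinb6b, Serpinb6c and the granzyme B inhibitor Serpinb9, did not pass in any of the 5 comparisons. Serpinb9 had levels of -0.52, -0.32 and -0.46 in the 6-week knockout and -0.79, -0.25 and -0.60 in the 6-week wild type, which overlapped. Of 10 tested leukocyte granule and lysosomal proteases 3 passed at 6 weeks, with Gzmb higher and Gzmk and Elane lower in knockout livers, and at 12 weeks Gzmk, encoding granzyme K, was lower (-0.53 ± 0.14, adjusted p = 0.0493). Of 11 NK and T cell markers 4 were lower and 0 higher in the 12-week knockout, with a summed level of 15000 to 19400, against 25500 to 40700 in the 12-week wild type.

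The 2 tested members that do not inhibit proteases and are tied to matrix or vessels were Serpinf1, which encodes the antiangiogenic factor PEDF, and Serpinh1, the collagen chaperone HSP47. Serpinf1 differed by 0.11 ± 0.07 at 6 weeks and 0.03 ± 0.07 at 12 weeks. Serpinh1 had levels of 0.71, 0.73 and 0.83 in the 6-week knockout, against -0.16, 0.42 and 0.66 in the 6-week wild type, which did not overlap and did not pass (0.45 ± 0.26, SE, adjusted p = 0.228 by limma). Of 12 stellate cell and fibroblast markers 1 was lower and 0 higher in the 6-week knockout.

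With age, 5 of the 38 members differed between 12-week and 6-week knockout livers, 3 higher and 2 lower at 12 weeks. Of all genes 6.91% were called in that comparison, 3.98% higher and 2.93% lower. In wild type livers 6 members differed, 4 higher and 2 lower at 12 weeks, where 9.04% of all genes were called, 4.61% higher and 4.43% lower. These comparisons share arrays with those between genotypes, so they are not separate evidence. Serpine2 was higher at 12 weeks in both genotypes, by 1.28 ± 0.14 in the knockout (SE, adjusted p = 0.00111 by limma) and by 2.78 ± 0.14 in the wild type (adjusted p = 7.26e-06). Only 1 of the 3 wild type arrays of 6 weeks was well above background for Serpine2, so the size of its wild type difference is uncertain. Serpina5 was higher at 12 weeks by 0.87 in the knockout, where the ages did not overlap (adjusted p = 0.0533), and that difference passed with quantile normalization (0.94, adjusted p = 0.0342), with the slide as a random term (adjusted p = 0.0463) and without replicate 1 of the 12-week knockout (1.08, adjusted p = 0.0358). Serpina6 was higher at 12 weeks in the knockout by 0.70, where the ages did not overlap (adjusted p = 0.0647). Its second probe passed (0.78, adjusted p = 0.0348). The first probe passed in some other fits, among them normexp background correction (0.72, adjusted p = 0.0385) and the slide as a fixed term (adjusted p = 0.0346). In the knockout Serpinb1a rose by 1.91 ± 0.35 (adjusted p = 0.0114), while Serpina9 fell by 1.64 on the log2 scale (adjusted p = 0.0316) and Serpina11 by 0.67 (adjusted p = 0.00672). The fall of Serpina9 did not pass without any 1 of the 6 knockout arrays (-1.85 to -1.52, adjusted p = 0.0527 to 0.109). All of these arrays lay on slide 2.

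In the wild type Serpina12 was higher at 12 weeks (3.32 ± 0.56, SE, adjusted p = 0.00697 by limma), 4.13-fold against the floor of the dimmest signals well above background. Serpina5 was also higher (adjusted p = 0.0014). The fitted Serpina5 difference of 1.92 ± 0.23 is no measured size, since 0 of the 3 arrays of 6 weeks were well above background. No fold above 1 was left against that floor. Serpina11 rose by 0.40 ± 0.11 (adjusted p = 0.0468), opposite to its fall in the knockout, but its second probe gave 0.30 (adjusted p = 0.111) and 10 of the 12 fits that left out 1 array gave an adjusted p between 0.0519 and 0.151. Serpina6 fell by 1.05 (adjusted p = 0.0114) and Serpina3n by 0.78 (adjusted p = 0.0111). Here 2 of the 3 arrays of 12 weeks lay on slide 2 and all arrays of 6 weeks on slide 1. On slide 1, which holds a single array of 12 weeks, the difference from the 3 arrays of 6 weeks was 3.04 for Serpine2, 3.84 for Serpina12, 2.07 for Serpina5 and -1.44 for Serpina6, the same directions as over both slides. With 1 array on one side, only the sizes are given here.

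The knockout effect differed between ages in 7 members, 4 with a higher and 3 with a lower effect at 12 weeks, where 10.3% of all genes were called, 5.58% higher and 4.76% lower. Serpina6, Serpinb1a and Serpina3n, each lower in the 6-week knockout, were among the higher ones. The lower ones were Serpine2, Serpina11 and Serpina12, each higher in the 6-week knockout. For Serpina5 and Serpina9 the change of the effect was -1.06 ± 0.33 (SE, adjusted p = 0.0712 by limma) and -1.74 ± 0.54 (adjusted p = 0.071), short of the threshold.

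With the slide as a fixed term, which at 6 weeks is estimated through the only 12-week wild type array of slide 1, 6 members passed between genotypes at 6 weeks. Of these 5 were among the 14, namely Serpine2 (1.87), Serpina5 (2.66), Serpina12 (5.56), Serpina6 (-1.88) and Serpina7 (-2.03), and the other was Serpina3c. With the slide as a random term 9 passed, all among the 14. Over all genes the calls numbered 4662 without a slide term, 588 with the fixed and 1227 with the random term.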

How the data were processed

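RNA of 12 livers was measured on 1-colour Agilent arrays, 3 in each of 4 groups. Per the file headers, the authors quantified the arrays with Agilent Feature Extraction 10.7.3.1, and the deposited processed intensity is background-subtracted, detrended and not scaled between arrays. The value table the authors deposited holds the same intensity on a linear scale, rounded (largest difference 0.497%); its column medians run from 21.6 to 29.5, and it has no centring or direction.

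Current symbols came through a RefSeq table, and probe positions are the files' own on mm9. Outlier spots were left out, spots of a probe averaged, and each array's 75th percentile subtracted on the log2 scale. A gene took its tested probe with the highest mean, which gave 22130 genes. Group means were fitted in R 4.3.3 by limma 3.58.1 (lmFit, then eBayes) with 8 degrees of freedom left, with Benjamini-Hochberg adjustment over all genes, and checked on simulated data. Errors are standard errors of that fit, and the number of arrays limits precision. A fold against the dimmest signals well above background sets the brighter group against a floor taken on each array. The floor is the dimmest signal well above background or the dim probe's signal, whichever is larger. A spot brighter than that floor can still fall short of well above background, so such a fold is no strict lower bound.

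The members, gene lists and tests were chosen with earlier results of these data known. Named members are those past an adjusted p of 0.05 in at least 1 comparison, and genes of other lists are named by smallest p, at most 4 per list and comparison. Serpinc1, Serpina3k, Serpina3m, Serpina3c, Serpinb9, Serpinh1, Serpina1a, Serpina1f, Serpina3b, Serpina3f, Serpina3g, Serpinf1, Serpinb9c and Serpinb6d, which the naming rule did not take, were described after their values were seen. The count over probes with TG repeats and the fit on slide 1 alone were also chosen after seeing the data. 1 tested member is included in the counts but not reported here.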

Additional observations from a re-analysis of the deposited data

Results flagged for a closer look

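The knockout effect differed between 12 and 6 weeks, by the fit's own test of that difference, in the members given here. The change, 12 weeks minus 6 weeks on the log2 scale, was 2.68 for Serpinb1a, 1.76 for Serpina6 and 0.97 for Serpina3n, and it was -1.08 for Serpina11, -1.50 for Serpine2 and -3.81 for Serpina12. With the slide as a fixed term 5 of these 6 still passed, and Serpina3n did not (0.88, adjusted p = 0.0736 by limma).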

How the results depend on the processing

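For the 33 differences of single members that passed, 750 values were recomputed: 674 kept direction and call, 75 kept only the direction, and 1 reversed, Serpinb3c at 6 weeks, 0.13 with the slide as a fixed block. Outside these 33, Serpina3c at 6 weeks turned to 0.73 in that fit and passed. The 14 calls at 6 weeks became 6 with the slide as a fixed block and 9 with it as a random block, and ran from 11 to 16 when leaving out an array. The single call at 12 weeks became 0 when probes had to be well above background on all 12 arrays, since Serpina5 was then not tested, and ran from 1 to 4 when leaving out an array, with 4 without replicate 3 of the 12-week wild type (Serpina6, Serpinb1a and Serpina1f added). That filter on all 12 arrays also left 3 calls with age in the knockout, 3 in the wild type and 4 in the difference of the knockout effect, from fewer genes tested. Calls with age in the wild type numbered 2 in a fit of these groups alone, 0 on slide 1 alone, where 1 array against 3 is too small a design to speak of stability, and 5 to 10 when leaving out an array, with 10 without replicate 1 of the 12-week wild type. Leaving out an array gave 4 to 7 calls with age in the knockout and 6 to 10 in the difference of the knockout effect. With a replicate block the 5 comparisons gave 12, 1, 4, 5 and 7 calls; arrays with the same number had correlations of -0.09 to 0.18 between their deviations, so the numbers do not pair the animals. Serpinb8, Serpinb3c and Serpina4-ps1 at 6 weeks, Serpina9 with age in the knockout and Serpina11 with age in the wild type lost their call without at least 1 array. Dim probes (Serpina5, Serpina12, Serpine2 and Serpinb3c) limit the size of their differences. With normexp background correction the 6-week difference of Serpina12 was 1.99, against 4.78, and that of Serpina5 was 0.53, against 2.43.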
